A study of Caenorhabditis elegans with 2 samples.

Results

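Summits in the introns of protein coding genes on the autosomes of Caenorhabditis elegans, away from annotated transcript starts, numbered 5399 of 30000 peaks in the pooled relaxed list of an NHR-77 ChIP-seq experiment, and 5399 of its 24753 autosomal peaks (21.8%). A summit, the base of highest enrichment in a peak, was taken when it lay in an intron of a protein coding gene and in no exon of any gene. It also had to lie outside the promoter windows, which began 1000 bp before the 5′ end of a transcript and ended 500 bp past it, with piRNA transcripts left out. The choice used position alone and no measured value. The samples were 2 biological replicates of 1 group, whole L3 larvae with males and females pooled, of strain OP353. All carried the unc-119(tm4063) allele on chromosome III and the transgene wgIs353, which carries eGFP-tagged nhr-77. The group therefore has no untagged or untreated counterpart here, and the promoter and cells that drive the transgene are not given in the labels. Whether the tag or the protein itself was precipitated is not settled here, as the label for the antibody gives just nhr-77. Whole animals were used, so the tissue in which a site was occupied cannot be told apart.

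NHR-77 belongs to the nuclear hormone receptors, zinc finger transcription factors that bind short DNA words and in many cases respond to small lipophilic ligands. The family is much enlarged in nematodes, and most members have no known ligand. Regulatory elements of worm genes usually lie close upstream of the gene, but long introns, first introns among them, can also hold enhancers, internal promoters and small noncoding RNA genes. A worm intron is typically short, and repeats and AT-rich sequence fill much of the longer ones. Intronic peaks away from any annotated start are therefore places where an enhancer, an unannotated start or a repeat could all be met.

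The authors derived a thresholded list of 590 peaks with the irreproducible discovery rate (IDR), a procedure that compares the ranks of peaks in replicates. Of the intronic summits, 14 were in that list, and they lay in 12 genes. The sequences around 9 of them are printed here because they carry the 7-letter word CTGCGTC or show a peak without it. The word lay within 100 bp of the summit in 10 of the 14. The word stands in capitals, written GACGCAG where it is on the other strand. The summits of pqn-41 are named by signal, so the middle one has the lowest coordinates. Each run is the plus strand of the ce11 genome, 60 bases on either side of the summit, from the RefSeq copy of that assembly. Every run of this length that holds the word is printed. Those of pkg-2, mnk-1, daf-5, pde-4 and Y57G11C.22 do not hold it and are left out. The word is therefore more frequent among the printed runs than among all 14.
Y111B2A.12, chrIII:12612578-12612698: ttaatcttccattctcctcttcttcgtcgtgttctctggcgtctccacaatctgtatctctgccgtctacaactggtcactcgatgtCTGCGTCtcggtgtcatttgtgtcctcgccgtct
spop-1, chrIII:10096590-10096710: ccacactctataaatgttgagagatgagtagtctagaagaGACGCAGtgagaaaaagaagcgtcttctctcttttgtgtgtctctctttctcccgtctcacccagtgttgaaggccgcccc
pqn-41, strongest summit, chrIII:1925323-1925443: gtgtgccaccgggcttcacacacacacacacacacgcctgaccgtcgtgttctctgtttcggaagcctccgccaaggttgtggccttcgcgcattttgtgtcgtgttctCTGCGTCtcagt
pqn-41, weakest summit, chrIII:1926530-1926650: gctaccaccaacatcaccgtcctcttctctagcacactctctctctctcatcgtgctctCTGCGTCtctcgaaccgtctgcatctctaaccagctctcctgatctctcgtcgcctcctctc
epg-9, chrIV:2602108-2602228: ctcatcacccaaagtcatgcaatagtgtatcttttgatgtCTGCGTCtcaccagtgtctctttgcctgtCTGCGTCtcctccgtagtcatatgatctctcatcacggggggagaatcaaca
Y43F8B.2, chrV:19529346-19529466: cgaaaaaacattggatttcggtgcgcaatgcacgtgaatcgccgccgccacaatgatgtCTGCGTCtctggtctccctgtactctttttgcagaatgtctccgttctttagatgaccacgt
nhr-46, chrIV:5754113-5754233: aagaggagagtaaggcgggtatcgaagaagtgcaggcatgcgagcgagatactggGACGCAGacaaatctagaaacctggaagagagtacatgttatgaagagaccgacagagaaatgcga
pqn-41, middle summit without the word, chrIII:1921436-1921556: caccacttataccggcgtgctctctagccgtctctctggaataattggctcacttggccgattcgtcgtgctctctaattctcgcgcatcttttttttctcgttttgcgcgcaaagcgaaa
zfp-1, without the word, chrIII:8795708-8795828: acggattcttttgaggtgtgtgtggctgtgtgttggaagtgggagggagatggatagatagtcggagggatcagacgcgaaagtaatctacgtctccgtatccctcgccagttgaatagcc

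The word was found by counting words of 6 to 8 letters around these same summits, after their sequences had been seen, so its high share among them, and its excess there over any other group, follow from the choice and carry no test. Within 100 bp of the summit, on either strand, 10 of the 14 IDR summits held CTGCGTC (71.4%, exact 95% interval 41.9 to 91.6%). It was in 124 of the 5385 other intronic summits (2.30%, 1.92 to 2.74%). It was in 305 of 18093 windows of 201 bp placed evenly over the same intron sequence (1.69%). Among the other 461 autosomal IDR peaks 14.1% held it, with 12.6% (9.47 to 16.3%) of the 389 in promoter windows and 24.5% (13.3 to 38.9%) of the 49 in intergenic sequence. Among the 115 IDR peaks on chromosome X the share was 13.0% (7.49 to 20.6%).

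The word lay close to the summit in several of the peaks. There were 12 matches in the 10 windows, 7 of them within 50 bp, and the nearest match to a summit lay at a median of 23.5 bp, from 2 to 91 bp. Matches spread evenly over the window would also put many within 50 bp, and positions at the other summits were not compared. In Y43F8B.2, nhr-46 and the weakest of the pqn-41 summits the middle of the word was 2 bp from the summit. The matches of mnk-1, daf-5 and pde-4, at 74, 80 and 91 bp, fall outside runs of the length printed above. Both epg-9 and mnk-1 had 2 matches.

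Runs of alternating G and A were also frequent. The motif GAGAGA, searched on both strands, was in 9 of the 14 windows (64.3%, 35.1 to 87.2%), in 9.21% of the other intronic summits and in 7.69% of evenly placed windows. The share was 29.3% (24.8 to 34.1%) for IDR peaks in promoter windows, an interval just below that of the intronic IDR summits. It was 44.9% (30.7 to 59.8%) for those in intergenic sequence and 39.1% (30.2 to 48.7%) for those on chromosome X, and both of these intervals overlapped that of the intronic IDR summits. The gap to promoter windows is narrow and was not examined at other settings, where the intronic share ran from 50 to 80%. Of the 14 windows, 3 lie in the same pqn-41 intron. GAGAGA was chosen with earlier results of these data known. Both CTGCGTC and GAGAGA were in 8 windows, either was in 11, and neither was in those of zfp-1, pkg-2 and Y57G11C.22. The shorter word GTCTC, which can share letters with the longer one, was in all 14 windows and in 19.1% of the other intronic summits. It was also common in IDR peaks elsewhere, in 48.6% of those in promoter windows, 57.1% of those in intergenic sequence and 52.2% of those on chromosome X. Like CTGCGTC, it was chosen from these windows.

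The hexamers that nuclear receptors are known to bind were in none of the 14 windows, which are too few to show a lack of them. The canonical hexamer AGGTCA was in 0 of the 14 windows, with an interval reaching 23.2%, and in 4.45% of all the intronic summits and 4.50% of evenly placed windows. Elsewhere AGGTCA was in 10.2% (3.40 to 22.2%) of intergenic IDR peaks, 4.63% of those in promoter windows and 7.83% (3.64 to 14.3%) of those on chromosome X. The variant AGTTCA was likewise in 0 of 14 and in 11.1% of the intronic summits, beside 10.5% of evenly placed windows. For AGTTCA the shares of IDR peaks elsewhere were 10.2%, 9.77% and 7.83% in the same order. The GATA factor word AGATAA was in 0 of 14 and in 10.2% of the intronic summits. The E-box CACGTG, bound by basic helix-loop-helix factors, was in 3 of 14 (21.4%, 4.66 to 50.8%) and in 3.06% of the intronic summits. Among IDR peaks elsewhere it was in 14.3% (5.94 to 27.2%) of those in intergenic sequence, 4.11% in promoter windows and 4.35% on chromosome X. The tRNA B box, an internal promoter element of tRNA genes searched as GTTCGANNC, was in 2 of 14, at the strongest pqn-41 summit and at Y57G11C.22, and in 1.26% of the intronic summits. It was in 13.9% (8.17 to 21.6%) of IDR peaks on chromosome X, 5.40% of those in promoter windows and 2.04% of those in intergenic sequence. CGCG was in 6 of 14 (42.9%, 17.7 to 71.1%), and in 56.8% (51.7 to 61.8%) of the promoter window IDR peaks. A match is a stretch of letters, and no match says only that those letters are not in the window.

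Intronic summits seldom reached the IDR list. Their share there was 0.259% (14 of 5399, exact 95% interval 0.142 to 0.435%), against 1.92% of all autosomal pooled summits. It was 3.33% (3.01 to 3.67%) for the 11684 autosomal summits in promoter windows and 1.40% (1.04 to 1.85%) for the 3498 in intergenic sequence, and neither interval met that of the introns. Summits in coding exons away from starts had the share 0.259% (8 of 3083, 0.112 to 0.511%), an interval that covered that of the introns. Introns of X-linked genes, chosen by the same rule, gave 7 of 952 (0.735%, 0.296 to 1.51%), and that interval overlapped the autosomal one. These intervals cover counting error only, and neighbouring peaks are not independent of each other.

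**Figure D1:**
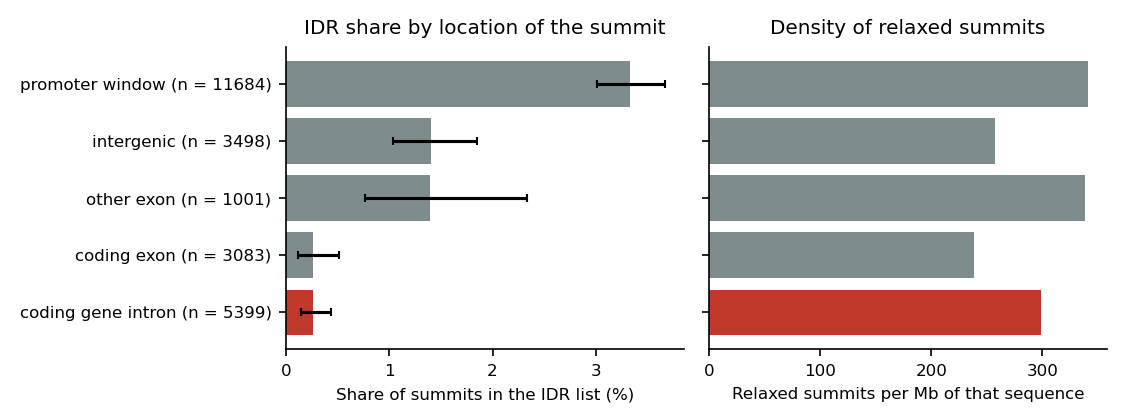
The left bars show the share (%) of autosomal pooled summits in each location that were in the IDR list, with exact 95% intervals, and the right bars show all pooled summits per Mb of that sequence. Coding gene introns, in red, had 298 summits per Mb, close to the 299.8 of the autosomes as a whole, while 0.259% of them were in the IDR list against 3.33% in promoter windows.

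The relaxed list itself covered introns about as densely as the rest of the autosomes. The sequence that met the rule came to 18.1 Mb, with 298 summits per Mb, or 1 summit for every 3.35 kb. Promoter windows held 341 per Mb, intergenic sequence 257 and coding exons 239, beside 299.8 over all autosomal sequence. Counted in IDR peaks, introns held 0.774 per Mb, coding exons 0.619, intergenic sequence 3.60 and promoter windows 11.4. The count of relaxed summits and the count of IDR peaks therefore ordered the locations differently.

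The IDR list held the highest signals of the pooled list, so signal and rank restate its share in finer steps. The signal value is the enrichment of the ChIP over the control on the scale of the authors' peak caller. Its median over the intronic summits was 7.85, with quartiles of 6.50 and 10.03 and a range of 5.53 to 107, and that of promoter window summits was 8.61. Of the intronic summits, 4.72% were among the 3000 highest peaks of the pooled list, against 9.96% of autosomal summits and 13.9% of those in promoter windows. Summits in coding exons were near the intronic ones, with 4.31% and a median signal of 7.87, as were X-linked introns with 4.83%. The share of intronic summits among the autosomal ones rose as rank fell. It went from 14 of 475 in the IDR list (2.95%) to 7.44% at ranks 591 to 1500, 14.9% at 1501 to 3000 and 24.2% past rank 12000.

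Most of the intronic summits were not recovered in both replicates. A summit of the replicate's own relaxed list lay within 100 bp of 40.3% of them in replicate 1, against 44.6% of all autosomal pooled summits, and of 37.9% in replicate 2, against 40.5%. Both replicates had one for 515 (9.54%, 8.77 to 10.4%), against 13.9% of all autosomal pooled summits and 17.6% (17.0 to 18.3%) of those in promoter windows. Neither replicate had one for 1694. Recovery in both replicates was 9.60% (8.58 to 10.7%) for summits in coding exons and 10.3% (8.44 to 12.4%) for introns of X-linked genes. Both intervals overlapped that of the autosomal introns, so this recovery was not particular to them. The pooled list was called on both replicates together, so part of the recovery follows from its construction. Over the 515 summits matched in both, Spearman's correlation between the signals of the replicates was 0.214, beside 0.486 over 2061 promoter window summits. Over the 120 matched summits at ranks 591 to 3000 it was -0.10. These ranks span a narrow range of pooled signal, 15.2 to 28.6. The pool is made of both replicates, so a low value there follows in part from the choice of ranks. These values describe peaks that were chosen by pooled calling and share libraries.

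Of the 14 IDR summits, 12 were matched in both replicates. Among the 590 highest peaks of a replicate's own list were 9 of the 14 in replicate 1, 8 in replicate 2 and 6 in both. Their pooled signal had a median of 37.4, near the 38.5 of the whole IDR list, and reached down to 29.0. Since the IDR procedure used these ranks, the recovery of the 14 is a description.

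The strongest intronic peak lay in intron 4 of 7 of Y111B2A.12, a gene without a symbol, at chromosome III from 12612619 to 12612704. Its pooled signal was 107 and its pooled rank 31. It ranked 33 in replicate 1, with signal 46.8, and 42 in replicate 2, with signal 57.7, the highest rank of any of the 14 in each. At 86 bp it was also the only one of the 14 under 300 bp wide. The intron is 7076 bp long and the nearest counted 5′ end was 3349 bp away.

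Next came spop-1, which encodes a protein like the ubiquitin ligase adaptor SPOP, with a peak in its first intron at chromosome III from 10096478 to 10096821. The pooled signal was 56.2, and the replicate signals were 20.1 (rank 341) and 32.0 (rank 105). The summit lay 1332 bp into an intron of 4847 bp.

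Intron 14 of pqn-41 held 3 of the 14. This gene encodes a glutamine- and asparagine-rich protein needed for the death of the linker cell in males. The peaks ran from 1921324 to 1921667, 1925211 to 1925554 and 1926418 to 1926761 on chromosome III, with pooled signals of 36.5, 55.9 and 29.0. The strongest ranked 100 in replicate 1 and 222 in replicate 2. The other two ranked 947 and 917 in replicate 1 and 1096 and 1083 in replicate 2, so neither was among the highest 590 of either list. The same intron, 10372 bp long, held 4 more summits, and the highest of them had signal 24.6 at rank 888 and reached ranks 5072 and 591 in the replicates. A snoRNA gene, B0524.10, also lies in that intron.

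On chromosome IV, epg-9, an autophagy gene related to mammalian ATG101, had its peak from 2601996 to 2602339 in intron 2 of 5. The signal was 47.4 in the pool, 25.6 in replicate 1 (rank 173) and 17.5 in replicate 2 (rank 451). Its intron of 1824 bp was among the shorter ones, and the nearest counted 5′ end was 1027 bp away. On the same chromosome pkg-2, a cGMP-dependent protein kinase gene, had a peak from 8527609 to 8527952 in intron 4 of 10 with pooled signal 41.03. Its summit lay 5178 bp from any counted 5′ end, the farthest of the 14, and ranked 506 and 196 in the replicates.

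The nuclear receptor gene nhr-46 had a peak in its first intron from 5754001 to 5754344 on chromosome IV. Its pooled signal was 36.8, with 25.01 in replicate 1 (rank 192) and 10.4 in replicate 2 (rank 1945). It thus ranked far higher in replicate 1. The peak of Y57G11C.22, from 14838214 to 14838557 on the same chromosome, had signal 30.5 and ranked 1079 and 929 in the replicates. It is the one summit of the 14 whose surroundings have copies elsewhere in the genome, 3 of them of at least 100 bp and 80% identity. A protein coding gene and 2 pseudogenes lie nested in its intron.

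The peaks of daf-5, mnk-1 and pde-4 lay on chromosome II. In daf-5, whose product is a Sno/Ski-like partner in the TGF-beta pathway of dauer formation, the peak from 14040414 to 14040757 stood in the first intron with pooled signal 37.1. It was 17.9 in replicate 1 (rank 456) and 19.9 in replicate 2 (rank 336), so the ranks were near each other. In mnk-1, a MAP kinase-interacting kinase gene, the peak from 10551969 to 10552312 had signal 37.6, 31.8 in replicate 1 (rank 99) and 12.2 in replicate 2 (rank 1226). In pde-4, a cAMP phosphodiesterase gene, the peak from 7631125 to 7631468 had signal 30.9, 9.23 in replicate 1 (rank 3113) and 18.1 in replicate 2 (rank 417). These last peaks thus stood high in 1 replicate only, and not in the same one.

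Each of 2 peaks had no summit within 100 bp in one of the replicates. The peak of zfp-1, which encodes an AF10-like chromatin protein, ran from 8795596 to 8795939 on chromosome III with pooled signal 42.4 and ranked 402 in replicate 2. The nearest summit of replicate 1 lay 117 bp away. The peak of Y43F8B.2, a gene without a symbol, ran from 19529234 to 19529577 on chromosome V with signal 36.9 and ranked 245 in replicate 1. The nearest summit of replicate 2 lay 107 bp away, so both missed the matching distance narrowly.

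**Figure D2:**
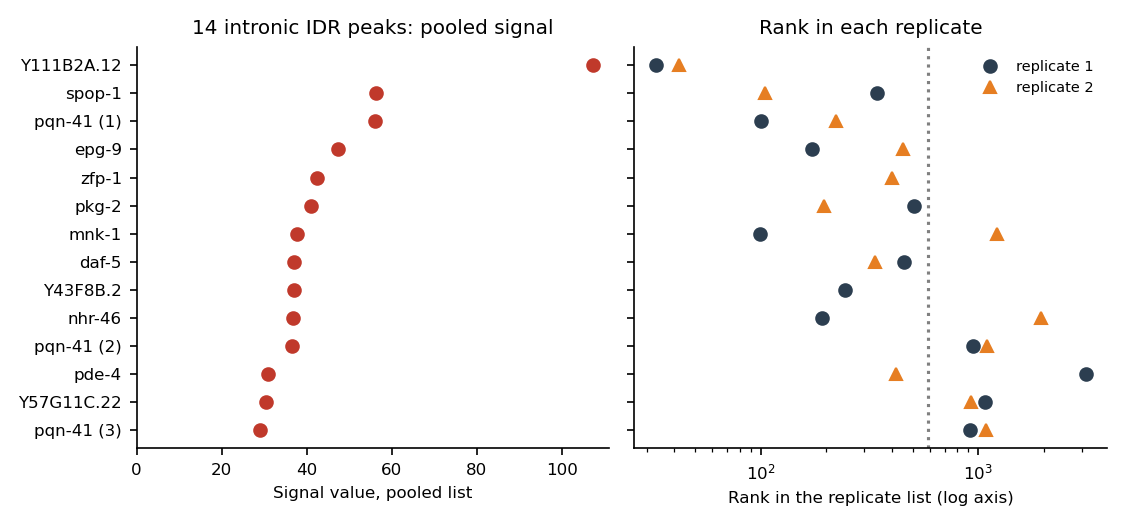
Points on the left give the pooled signal value of the 14 intronic IDR peaks by host gene, and on the right their rank in each replicate's own list on a log axis, with a dotted line at rank 590; pqn-41 is numbered by falling signal. Y111B2A.12 stood apart at 107, and 6 of the 14 lay left of the line in both replicates.

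The intronic summits just below the IDR list did not differ much in signal from its lowest member. The first was in let-363, the gene of the kinase TOR, with signal 28.6 at rank 601. Next came Y54G11A.7 with signal 27.1, cyp-35C1, a cytochrome P450 gene, with 26.5, R02F2.1 with 26.3 and elo-5, a fatty acid elongase gene, with 26.2 at rank 747. In replicates 1 and 2, let-363 ranked 754 and 1597, and Y54G11A.7 ranked 1171 and 5701. The summit of cyp-35C1 had no match in replicate 1 and ranked 4577 in replicate 2. Those of R02F2.1 and elo-5 ranked 776 and 237 in replicate 1 and had no match in replicate 2. The GC content around all these summits was 34.3 to 37.8%, below that of any of the 14.

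Intron order made no visible difference to the relaxed summits. First introns held 848 of the 5399 (15.7%, 14.7 to 16.7%) and made up 15.7% of the sequence that met the rule. Second introns held 15.1% of summits and 14.9% of sequence, and introns from number 10 on held 12.4% of both. The summits per Mb lay between 294 and 306 over all 6 order classes. Of the 14 IDR summits, 3 were in intron 1, 3 in intron 2, 0 in intron 3, 4 in intron 4, 1 in introns 5 to 9 and 3 in later ones, all of these last in pqn-41. The order was read from the longest spliced coding transcript with an intron over the summit.

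Intron length separated the IDR summits from the rest but not the relaxed summits from their sequence. The median host intron was 971 bp (quartiles 482 and 2400, range 41 to 86515), beside a base-weighted median of 1010 bp for the sequence that met the rule. Introns under 500 bp held 1408 of the summits (26.1%). In the shortest introns the 201 bp window reaches into the neighbouring exons, and summits matched at up to 100 bp can cross the intron's edge. Intron and exon cannot be told apart there. Relaxed summits per Mb ran from 257 to 332 over 6 length classes with no steady trend. The median host intron of the 14 IDR summits was 7491 bp. Introns under 1000 bp held 2780 summits (51.5%) and 0 of the 14 (exact interval 0 to 0.133%). Introns of at least 5000 bp held 771 summits (14.3%) and 10 of the 14, a share of 1.30% (0.624 to 2.37%), whose interval lay above that for short introns.

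The 3 peaks of pqn-41 share an intron, so the 10 lay in 8 introns. In the replicate lists taken alone the split by length was weaker. Among the 590 highest peaks of replicate 1 there were 15 intronic summits of this kind (0.297% of its 5053, against 1.9% of its autosomal summits), 8 in introns of at least 5000 bp and 2 in introns under 1000 bp. In replicate 2 there were 18 (0.337% of 5339, against 1.85%), with 7 and 2. Long introns held 14.5% and 14.1% of the intronic summits of these lists.

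**Figure D3:**
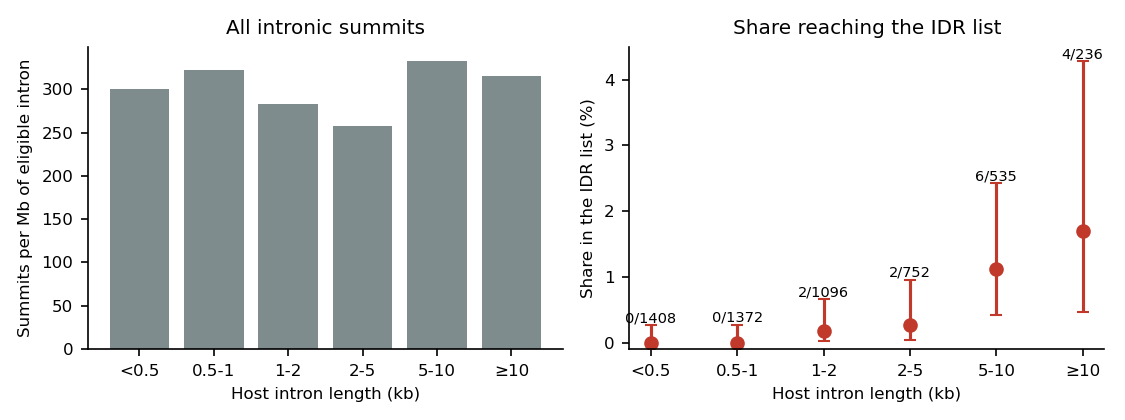
Bars on the left give intronic summits per Mb of qualifying intron sequence by host intron length (kb), and points on the right give the share (%) of them in the IDR list with exact 95% intervals and the counts printed above. Density lay between 257 and 332 per Mb in every class, while the IDR counts were 0 under 1 kb and 10 of 771 in the 2 longest classes together.

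Base composition moved with rank. In the 201 bp around the summit, GC content was 42.3 to 56.2% in the 14 IDR windows with a median of 48.3%, while the 5399 had a median of 32.8% and quartiles of 28.4 and 37.8%. All 14 were above that upper quartile. The median was 36.3% at ranks 591 to 1500, 35.1% at 1501 to 3000 and 32.8% past rank 12000. Promoter window IDR peaks had a median of 41.8% and intergenic IDR peaks one of 39.8%. Sequence that the reference marks as repetitive or of low complexity filled a median of 9.20% of the IDR windows and 49.8% of all the intronic windows. The summit base was marked in 2 of the 14, in 56.3% of the 5399 and in 56.6% of all qualifying intron bases.

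The share of windows with CTGCGTC, whose drop past the IDR list follows from its choice there, was 10.9% (4.11 to 22.2%) for ranks 591 to 1500, 5.91% for 1501 to 3000, 2.18 and 2.42% for the next bands and 1.97% past rank 12000. That of GAGAGA went from 64.3% in the IDR list through 23.6 and 20.97% to 12.7, 10.6 and 7.53%. Since GC-rich windows hold GC-rich words more often, both were also counted within GC classes. The excess of CTGCGTC in the IDR windows of a class again follows from its choice there, so its counts are a description only. At 45% GC or more CTGCGTC was in 8 of 10 IDR windows, in 7 of 26 at ranks 591 to 3000 (26.9%) and in 31 of 280 below rank 3000 (11.1%). Between 40 and 45% it was in 2 of 4, in 4 of 42 (9.52%) and in 30 of 567 (5.29%). No IDR window was below 40%, where the word was in 0 of 49, 2 of 64 and 4 of 60 windows at ranks 591 to 3000. In the class of 45% GC or more GAGAGA was in 7 of 10 IDR windows, in 13 of 26 at ranks 591 to 3000 (50%) and in 28.2% below rank 3000. From 40 to 45% GAGAGA was in 2 of 4, in 19 of 42 (45.2%) and in 13.2%. Within a GC class its share in the IDR windows was thus nearer to that at ranks 591 to 3000. The part of base composition in the rank of these peaks was not tested.

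In the lists of single replicates the word was less frequent at the top. It was in 8 of the 15 intronic summits among the 590 highest of replicate 1 (53.3%, 26.6 to 78.7%) and in 7 of 18 in replicate 2 (38.9%, 17.3 to 64.3%). Of these, the summits that did not match an IDR summit held it in 0 of 6 and in 3 of 10. At ranks 591 to 3000 the share was 6.59% and 4.62%, and below rank 3000 it was 2.22% and 1.62%. The summits at the top of these lists partly overlap the 14 in which the word was found.

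**Figure D4:**
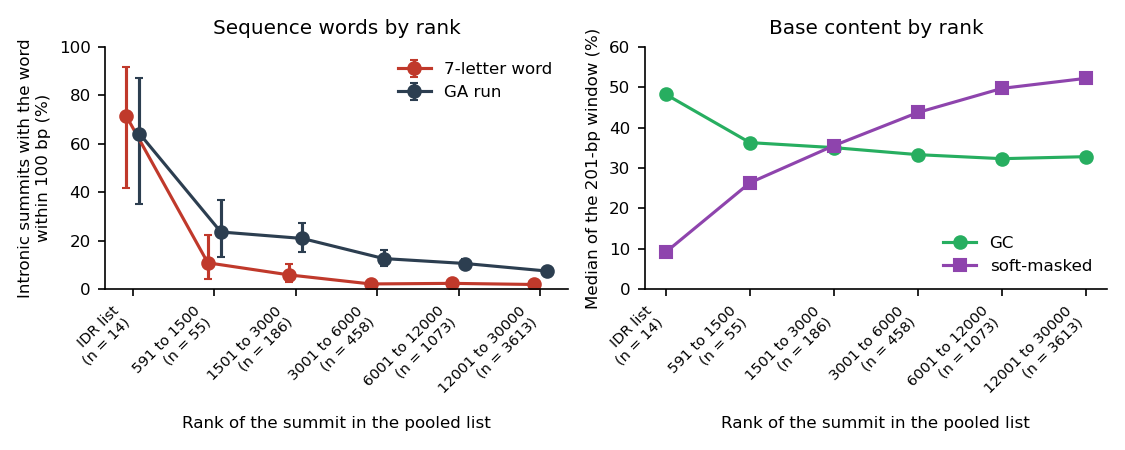
On the left, points show the share (%) of intronic summits with the 7-letter word CTGCGTC or the GAGAGA run within 100 bp, by rank in the pooled list, with exact 95% intervals; on the right are the median GC content and the median soft-masked share (%) of the 201 bp window. The word, which was picked for its frequency in the 14 IDR windows, stood at 71.4% there and at 10.9% in the next band, GC fell from 48.3 to 36.3%, and the masked share rose from 9.20 to 52.2% past rank 12000.

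The 5399 summits lay in 3039 host genes, out of 12735 with any intron sequence that met the rule (23.9%). Of the hosts, 1962 (64.6%) had 1 summit, 167 had at least 5 and 23 at least 10. In all, 4517 introns held a summit, 3947 of them just 1. The number per host rose with the qualifying sequence it offered, with a Spearman's correlation of 0.522 across the 3039 hosts. This correlation is across genes, and the hosts had a median of 2.14 kb of such sequence against 0.404 kb in genes without a summit.

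Among the 10 hosts with the most summits were daf-5 and spsb-1, a SPRY and SOCS box gene, with 17 each, the second highest count, in 14.8 and 22.7 kb of qualifying sequence. The translational control gene gcn-1 and ZK131.11 had 16 each, and Y48C3A.5, the phosphodiesterase gene pde-3 and crh-1, the CREB homologue, had 15 each. The GLI-type sex determination gene tra-1 and egl-4, a cGMP-dependent protein kinase gene, had 14 each. Per 100 kb these 10 hosts held 45.9 to 115 summits, beside 29.8 over all qualifying introns, as hosts picked for many summits would. Their strongest summits had signals of 10.3 in crh-1 to 37.1 in daf-5, and daf-5 alone had an IDR summit.

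In daf-5, 13 of the 17 summits were in the first intron, the most in any intron. The IDR summit lay 11582 bp from its start, and the next strongest had signals of 20.5 and 16.9 at ranks 1345 and 2181. The first of these ranked 849 in replicate 1 and 10541 in replicate 2, while the second had no match in replicate 1 and ranked 546 in replicate 2. The other 10 had signals of 7.66 to 12.02. CTGCGTC was in the windows of the IDR summit and of the one with signal 16.9, and in none of the other 11. In pqn-41 it was in 2 of 7 windows, both of IDR summits.

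**Figure D5:**
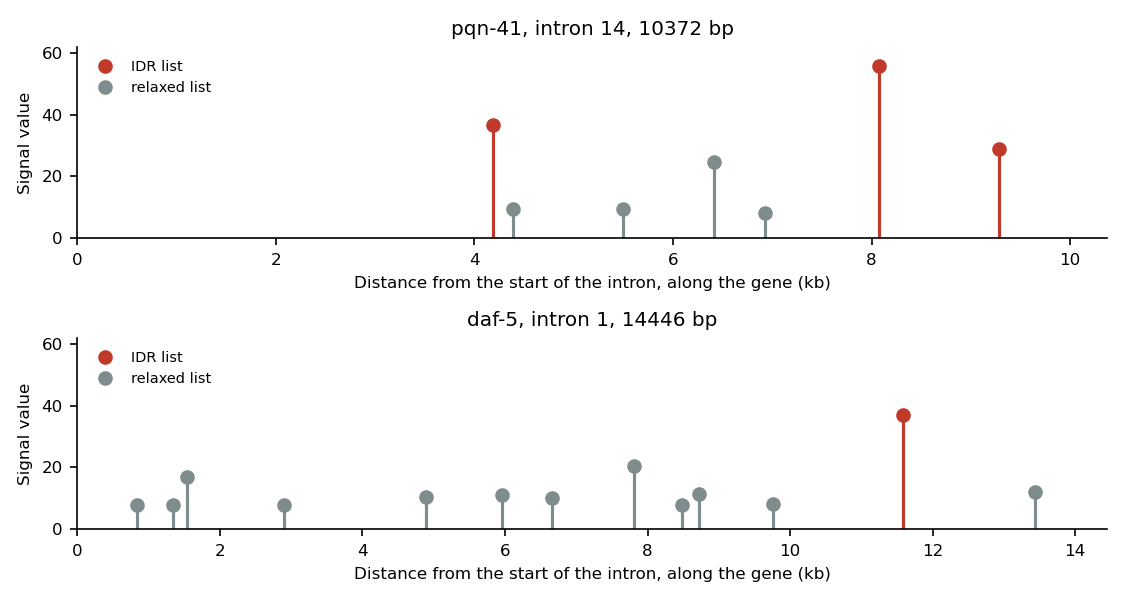
Stems give the pooled signal value of each summit along intron 14 of pqn-41 (7 summits) and intron 1 of daf-5 (13 summits), by distance from the start of the intron in the direction of the gene (kb), with IDR summits in red. The IDR summits of pqn-41 lay in the middle and last parts of the intron with a weaker summit of 24.6 between them, and daf-5 had 1 IDR summit of 37.1 among 12 weaker ones.

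Host genes were also read by function, in 12 lists chosen with earlier results of these data known. Nuclear receptor genes were hosts in 55 of 232 cases with qualifying sequence (23.7%), close to the 23.9% of all coding genes. They held 89 summits at 415 per Mb, the highest density of the lists, beside 298 over all introns. Of these 89, 7.87% were among the 3000 highest peaks, against 4.72% of all the intronic summits. That share was not particular to receptor genes. It was 7.69% of 39 summits in chromatin genes and 6.67% of 75 in developmental transcription factor genes, and 0 to 4.65% in the other lists with summits. The strongest summits in receptor genes were in nhr-46, then nhr-19 with signal 26.2 and nhr-62 with 22.6.

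Neuronal and muscle genes were hosts more often, and they also hold more qualifying sequence. Hosts were 29 of 43 axon guidance and adhesion genes (67.4%), 27 of 47 synaptic genes (57.4%), 17 of 31 channel and transporter genes of excitable cells (54.8%) and 15 of 30 muscle genes (50%). Their median qualifying sequence was 2.14 to 3.67 kb a gene, against 0.572 kb over all coding genes. Per Mb they held 214 summits in channel genes, 270 in guidance genes, 320 in synaptic genes and 368 in muscle genes. These 4 lists had 0 IDR summits among 37 in channel, 61 in synaptic, 75 in guidance and 43 in muscle genes, too few to show a share near the 0.259% of all the intronic summits. The highest signals were 21.7 in unc-52, the basement membrane perlecan, 18.8 in ric-4, the synaptic SNAP-25 protein, 18.1 in lev-11, tropomyosin, and 15.2 in kqt-3, a KCNQ potassium channel.

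Regulatory genes gave like densities. Developmental transcription factor genes were hosts in 30 of 65 cases (46.2%) with 376 summits per Mb. The strongest were in atf-7, a bZIP factor of innate immunity, with signal 25.1, in skn-1, the Nrf-like stress factor, with 22.0, and in tra-1 with 18.4. Signalling genes of the Wnt, Notch, EGF, TGF-beta and insulin pathways were hosts in 26 of 56 cases with 391 per Mb. After let-363 their strongest were mpk-1, an ERK kinase, with 17.7 and lit-1, a Nemo-like kinase, with 16.7. Chromatin genes were hosts in 21 of 50 cases (42%) with 345 per Mb, and the IDR summit of zfp-1 was their only one. Behind it were mys-1, a histone acetyltransferase gene, with 17.0 and dpy-21, a histone demethylase gene of dosage compensation, with 16.5.

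Chemoreceptor, collagen and ribosomal protein genes were seldom hosts, and they also offered less qualifying sequence. Its median was 0.358 kb a gene for chemoreceptor genes and 0.091 kb for ribosomal protein genes, against 0.572 kb over all coding genes. Chemoreceptor genes were hosts in 116 of 1165 cases (9.96%), with 195 summits per Mb, the lowest density among the lists with any summit, and 0.813% of their 123 summits were among the 3000 highest peaks. The strongest was in srt-52, with signal 22.2. Cuticle collagen genes were hosts in 6 of 54 cases (11.1%), with a median of 0.16 kb of qualifying sequence a gene. They held 7 summits in 0.0214 Mb, or 327 per Mb, too few to set apart from the 298 of all introns. Their highest signal was 15.1 in col-97. Cytosolic ribosomal protein genes had 0 hosts among 11 with qualifying sequence, which came to 0.001253 Mb in all, too little to show a lack of summits. Splicing and RNA-binding factor genes were hosts in 11 of 36 cases (30.6%) with 356 per Mb, led by msi-1, a Musashi protein, with 16.2, ptb-1 with 13.7 and spk-1, an SR protein kinase, with 13.5.

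The intronic IDR summits were spread over 4 of the 5 autosomes. Chromosome III held 6 of the 14 among 1216 intronic summits (0.493%, 0.181 to 1.07%), 3 of them in the same pqn-41 intron, chromosome IV 4 of 1008, chromosome II 3 of 1059 and chromosome V 1 of 919. Chromosome I held 0 of 1197, with an exact interval of 0 to 0.308%, and the intervals of all 5 autosomes overlapped. Relaxed intronic summits per Mb ran from 255 on chromosome V to 353 on chromosome II. Of all autosomal IDR peaks, 85 were on chromosome I, so peaks of other locations did reach the list there.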

How the data were processed

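ChIP-seq peak lists from 2 biological replicates of 1 group were used, on ce11 only. By the labels and the deposited inventory texts, the authors made relaxed lists of 30000 peaks for each replicate and for the pool, against a control, and an IDR list from these. No aligner, peak caller or IDR threshold is named there. The signal value in the deposited lists is the authors' enrichment on a scale that differs between lists, so it was used for ranks within a list and for rank correlations, and the signals printed for the pool and the replicates are to be read each within its own list. The read depth is unknown. The IDR list was checked to be the 590 highest peaks of the pooled list.

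Introns, exons and 5′ ends were taken from Ensembl release 115 (WBcel235, 46890 nuclear genes), the sequence and its soft-masking from RefSeq. Coordinates are 1-based. Summits at most 100 bp apart were matched. The motif window reached 100 bp to either side of a summit, with both strands read, and copies elsewhere were found with blastn 2.17.0. Intervals are exact Clopper-Pearson with 95% confidence and cover counting error only. With 1 group, no test was made. Scripts ran in Python 3.11.15 with scipy 1.17.1 and were tested on simulated data.

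The rule for the intronic summits, the 12 gene lists, the 11 motifs and the choice of named genes were made with earlier results of these data known. Named are all IDR members, the 5 highest below that list, the 10 hosts with most members and up to 3 hosts of a list by signal; the first of the 10 hosts is not reported here. The word CTGCGTC and 2 shorter ones were added after the sequences were seen.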

Additional observations from a re-analysis of the deposited data

How the results depend on the processing

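Of 47 alternative values, 32 stayed within the limits set for them, 15 moved and none reversed. The limits for counts were wide, so a value within them can still differ much. The members numbered 6159 with a promoter window of 500 bp upstream and 4028 with 2000 bp, in place of 5399, and both were within limits. Without soft-masked summits 2361 of the 5399 were left, with 10.6% matched in both replicates in place of 9.54%. The stronger 50% of the IDR list by signal held 6 intronic summits in place of 14. Matching within 50 bp gave 4.33% and within 200 bp 17.3% matched in both. First introns held 17.0% with a promoter window of 500 bp upstream, 14.5% with 2000 bp and 17.0% with the shortest intron over the summit, in place of 15.7%. The median host intron was 1002 bp with the 500 bp window, 989 bp with 2000 bp, 967.5 bp with piRNA starts included and 948 bp with the shortest intron, in place of 971 bp. With 1 replicate left out, it was 937 to 940 bp, the members numbered 5053 to 5339, those at the top of the list 15 to 18, the first intron share was 15.5 to 15.7% and that of GAGAGA 55.6 to 80%.

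Of the 14 IDR summits, the 2000 bp window removed those of epg-9 and pde-4 and 1 of pqn-41, and piRNA starts removed those of Y57G11C.22 and nhr-46. The 500 bp window added summits in Y62E10A.13, unc-52 and zfp-1, for 17. CTGCGTC was in 71.4% of the 14, in 75% with pqn-41 counted once, in 42.9% within 50 bp, in 38.9% without replicate 1 and in 53.3% without replicate 2, all chosen after seeing the data. No paired analysis was possible because the series holds 1 group. Read depth, unknown here, limits how firmly a summit missing from a replicate list can be called absent.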
